A study of Mus musculus with 16 samples.

Results

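The cytochrome P450 (Cyp) genes were read in whole mouse kidneys, with or without deletion of Vhl from the renal tubule and with or without acute kidney injury. The members are the genes whose symbol begins with Cyp and a digit and that have a probe set carrying that symbol alone, with 1 probe set per gene. There were 87 such genes among the 19938 genes tested on the array. Another 7 probe sets carry several symbols with at least 1 Cyp gene among them and were kept apart, and Cyp24a1, which inactivates vitamin D, and Cyp19a1, which makes oestrogen, were not analysed here. The 87 genes include 3 that RefSeq annotates as transcribed pseudogenes, Cyp2d13, Cyp2d37-ps and Cyp4f41-ps.

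Cytochrome P450 enzymes are haem proteins that insert an oxygen atom into a substrate, taking electrons from cytochrome P450 reductase in the endoplasmic reticulum or from a ferredoxin in mitochondria. In the kidney, Cyp4a enzymes hydroxylate fatty acids at the end of the chain and Cyp2c and Cyp2j enzymes turn arachidonic acid into epoxides, both acting on vessel tone and salt transport, while Cyp27b1 of the proximal tubule makes the active form of vitamin D. Several mouse P450 genes are expressed differently in males and females: Cyp4a12, Cyp2d9, Cyp7b1, Cyp2j13, Cyp2e1 and Cyp4b1 are known as male-predominant in mouse kidney, and Cyp4a14 as female-predominant.

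All mice carried a transgenic system in which doxycycline deletes Vhl, the substrate receptor of the ubiquitin ligase that removes hypoxia-inducible factors; in the line the study refers to, the Pax8 promoter drives the doxycycline-dependent activator. VHL-KO/AKI kidneys (n = 5) came from mice given doxycycline under the skin 4 days before death, at 0.1 mg for every 10 g of weight, and an injection of 50% glycerol into the muscle of 1 hind limb (0.05 ml for every 10 g), which breaks down muscle and injures the kidney, with water withdrawn from 20 h before the injection to 24 h after it. AKI kidneys (n = 5) had glycerol and water withdrawal without doxycycline, VHL-KO kidneys (n = 3) had doxycycline alone, and Control kidneys (n = 3) came from untreated mice of the same system. Doxycycline in mice that cannot delete Vhl, and water withdrawal alone, had no group of their own, and the labels give a body weight of 24 to 31 g and both sexes, but no sex for any animal. Levels below are the deposited log2 values, 1 array per mouse, so a difference of 1 is a 2-fold difference; levels of different genes come from different probes and are not set against each other.

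Vhl itself averaged 6.50 ± 0.12 in VHL-KO/AKI kidneys and 7.16 ± 0.12 in AKI kidneys (SD, n = 5 each), and 6.65 ± 0.04 in VHL-KO kidneys and 7.06 ± 0.04 in Control kidneys (SD, n = 3 each). It fell by 0.67 in VHL-KO/AKI against AKI kidneys (limma adjusted p = 9.98e-05), and the change of -0.40 in VHL-KO against Control kidneys missed the threshold (adjusted p = 0.0565), although the arrays of these groups did not overlap. Sex-linked genes followed the injury groups. Xist, made from the inactive X chromosome of females, lay between 4.16 and 5.08 in the 10 injured kidneys and between 10.23 and 11.47 in the 6 uninjured ones. Kdm5d, Eif2s3y and Uty, from the Y chromosome, averaged 7.77 to 8.26 in injured kidneys and 4.81 to 5.01 in the uninjured ones other than Control 3, which had 7.43 beside its high Xist of 10.23. The injury and the sex-linked signal therefore cannot be told apart in any comparison of injured with uninjured kidneys given below. AKI 4 also stood apart: its mean correlation with the other AKI arrays was 0.973, against 0.988 to 0.989 for the others, its tubular injury genes averaged 10.34 against 12.41 to 12.83, and its proximal tubule genes 11.86 against 10.38 to 10.99. Where leaving out Control 3 or AKI 4 changed a call, the value without that array is given. Each array also enters comparisons of other groups, through the shared estimate of the spread and the adjustment over all genes.

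Most Cyp genes were flat across the 16 arrays, and all 16 values were under 5.5 in 46 of the 87 genes. The group means spanned at least 1 in 18 genes and under 0.5 in 60 genes. A gene was called when limma's adjusted p, taken over all 19938 genes, was under 0.05, and by that rule 26 Cyp genes were called in at least 1 of the 4 pairwise comparisons and 61 in none.

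In AKI against Control kidneys, 12 Cyp genes rose and 13 fell. These are 13.8% and 14.9% of the members, beside 13.2% of all tested genes called higher and 14.9% called lower. The median change was 0.03 over the Cyp genes and 0.02 over all genes. Without Control 1, 6 rose and 10 fell, and with AKI and Control kidneys fitted alone, 6 rose and 9 fell. Calls over all genes were then 21.3% and 21.1%. In VHL-KO/AKI against VHL-KO kidneys, 9 rose and 5 fell, 10.3% and 5.75% of the members, beside 4.66% and 8.91% of all genes. These 2 injury comparisons share no array, but both carry the sex-linked difference. Of the called genes, 13 were called in the same direction in both, 8 higher and 5 lower, which is 52% of the 25 calls without and 92.9% of the 14 calls with Vhl deletion; Cyp2e1 was the exception among the 14. The matching overlap over all tested genes was not counted, so these shares are not a trait of the family. With genes left out whose mean was under 6.19, the median of all tested values, in every group, 24 of 36 Cyp genes were called in AKI against Control kidneys (66.7%, beside 48% of the 10544 genes kept) and 16 in VHL-KO/AKI against VHL-KO kidneys (44.4%, beside 23.9%). That filter keeps a gene that is high in 1 group alone, so these shares are a description. With sex-linked genes as a covariate, limma called no Cyp gene and no other gene in either injury comparison, with 8 Cyp genes at an unadjusted p under 0.05 in each. Unadjusted counts from such refits were taken over the Cyp genes alone. With Vhl deletion as the contrast, VHL-KO/AKI against AKI kidneys gave 3 genes that rose and 1 that fell (3.45% and 1.15%, beside 2.48% and 1.4% of all genes), and VHL-KO against Control kidneys gave 1 that fell and none that rose (1.15%, beside 0.0502% called lower and 0.476% called higher over all genes). By limma, 10 of the 87 members and 1664 of all 19938 genes had an unadjusted p under 0.05 in that last comparison. The calls between VHL-KO/AKI and AKI kidneys were 1 higher and 1 lower with quantile normalization, and none with these groups fitted alone (10 at an unadjusted p under 0.05).

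**Figure D1:**
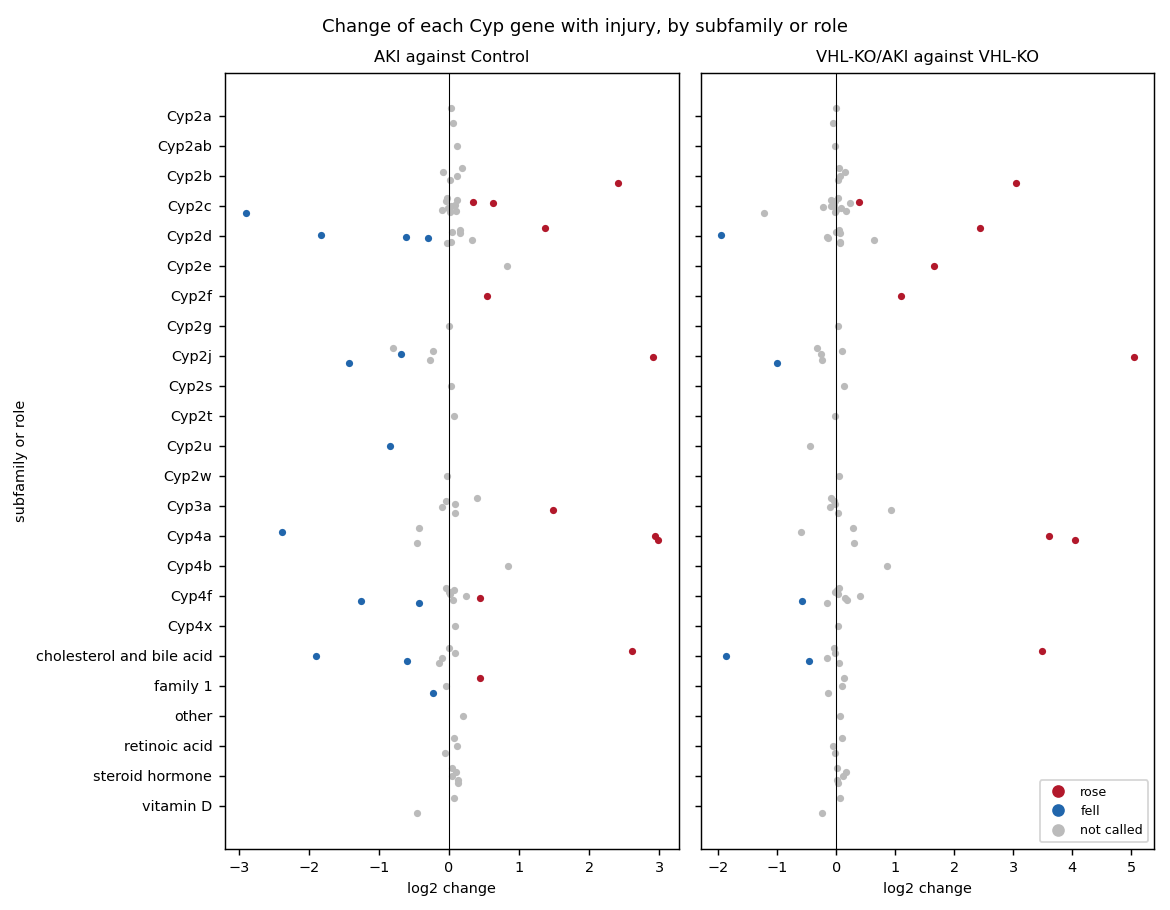
The log2 change of each of the 87 Cyp genes (horizontal axis) by subfamily or role (vertical axis, points spread slightly within a row) for AKI against Control kidneys on the left and VHL-KO/AKI against VHL-KO kidneys on the right. Red points rose (12 and 9 genes), blue points fell (13 and 5) and grey points were not called. In some rows, such as Cyp2b and Cyp3a, 1 gene lies far from 0 while the rest sit close to it. Others, such as the retinoic acid and steroid hormone rows, lie wholly close to 0.

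In 7 genes Control 3 stood at least 1 above both other Controls. The 4 described first had the widest spans of group means in the family. Cyp2j13, an epoxygenase-family gene of the kidney, had 11.27, 10.57, 10.77, 10.29 and 10.01 in the VHL-KO/AKI kidneys, 10.38, 10.35, 10.64, 11.53 and 10.16 in the AKI kidneys, 5.43, 5.84 and 5.36 in the VHL-KO kidneys, and 5.15, 6.25 and 11.70 in the Control kidneys. Every injured kidney was high and every uninjured kidney low except Control 3, which exceeded all injured kidneys. Cyp4a12a, which makes the vasoconstrictor hydroxylated form of arachidonic acid, had 12.60, 12.25, 12.59, 12.26 and 12.19 in VHL-KO/AKI kidneys, 12.51, 12.16, 12.34, 12.89 and 12.29 in AKI kidneys, 7.80, 9.07 and 8.14 in VHL-KO kidneys, and 7.50, 8.43 and 12.44 in Control kidneys. Its near-identical neighbour Cyp4a12b had the same order of groups, with 12.30 to 12.69 and 12.32 to 12.89 in the VHL-KO/AKI and AKI kidneys, 8.33 to 9.49 in the VHL-KO kidneys, and 8.03, 8.47 and 12.30 in the Control kidneys; probes for the pair may take up each other's RNA. Cyp7b1, which hydroxylates oxysterols and steroids, had 10.30, 10.07, 9.99, 10.66 and 9.76 in VHL-KO/AKI kidneys, 9.78, 10.27, 10.57, 10.71 and 9.65 in AKI kidneys, 6.69, 6.63 and 6.67 in VHL-KO kidneys, and 6.04, 6.48 and 10.25 in Control kidneys. Control 3 again sat among the injured kidneys, apart from all other uninjured ones.

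The same split was present in Cyp2d9, a steroid hydroxylase, with 9.19 to 9.68 in VHL-KO/AKI and 9.03 to 9.64 in AKI kidneys, 6.59 to 7.36 in VHL-KO kidneys, and 7.58, 7.11 and 9.28 in Control kidneys. Cyp2e1, which oxidises ethanol and other small molecules, had 12.44 to 12.80 in VHL-KO/AKI, 12.28 to 13.20 in AKI and 10.74 to 11.33 in VHL-KO kidneys, and 11.49, 11.04 and 13.03 in Control kidneys. Cyp4b1, which acts on fatty acids and foreign compounds, had 12.16 to 12.45 in VHL-KO/AKI, 12.37 to 13.00 in AKI and 11.19 to 11.81 in VHL-KO kidneys, and 11.04, 11.43 and 12.90 in Control kidneys. In all 7 genes, the other 5 uninjured kidneys lay below every injured kidney, and in 6 of the 7 Control 3 lay inside or above the injured range. How many of all tested genes had this split was not counted. Control 3 was at least 1 above both other Controls in 8.05% of the Cyp genes and in 0.231% of all tested genes (46 genes), and in no Cyp gene was it at least 1 below them. A list of 6 male-biased kidney genes outside the family averaged 11.98 in Control 3, 8.34 to 9.02 in the other uninjured kidneys and 10.93 to 12.08 in injured ones. Not every gene of that list had the split. Odc1 had 11.66 in Control 3, 11.03 to 11.40 in the other uninjured kidneys and 10.51 to 11.40 in injured ones, and Nudt19 also overlapped. By limma 1 of the 6 rose in AKI against Control kidneys and 4 rose in VHL-KO/AKI against VHL-KO kidneys. The 3 measured female-biased genes averaged 10.87 in Control 3, 11.20 to 11.64 in the other uninjured kidneys and 6.35 to 8.14 in injured ones.

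**Figure D2:**
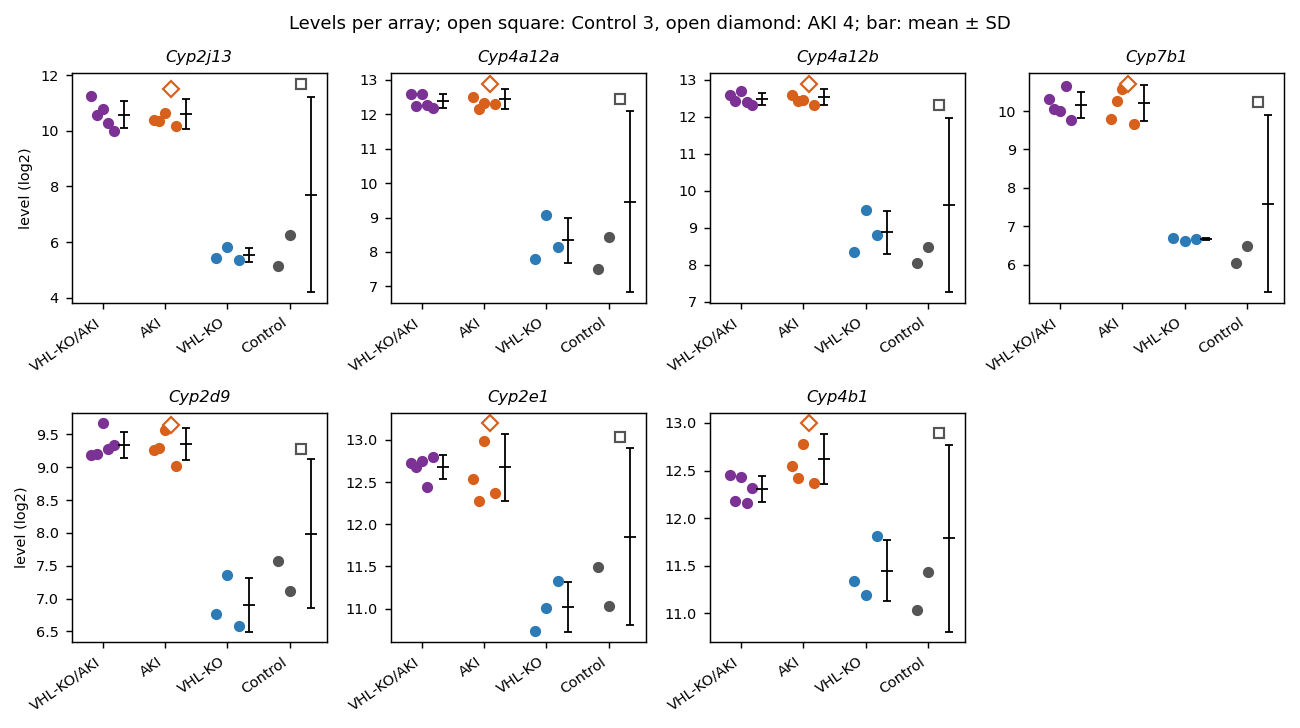
The log2 level (vertical axis) of the 7 Cyp genes in which Control 3 was at least 1 above both other Controls, 1 point per kidney by group, with mean ± SD as bars. Control 3, the open square, sits beside or above the injured kidneys, whereas the other Controls and all VHL-KO kidneys lie below every injured kidney; the open diamond is AKI 4.

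With all arrays, 5 of these 7 rose in AKI against Control kidneys, by 2.91 for Cyp2j13 (limma adjusted p = 0.0377), 2.98 for Cyp4a12a (0.00696), 2.93 for Cyp4a12b (0.00376), 2.61 for Cyp7b1 (0.00785) and 1.36 for Cyp2d9 (0.00843). Without Control 3 the rises were 4.91, 4.48, 4.28, 3.94 and 2.01, and Cyp2e1 and Cyp4b1 joined them at 1.41 and 1.39 (limma adjusted p = 0.000877 and 0.000246), against 0.82 and 0.84 with it (0.082 and 0.0512). With Control 3 kept, the call of Cyp2j13 was lost without any 1 of 7 arrays, Control 1, Control 2 and each AKI array (adjusted p up to 0.251, without Control 1, and 0.0555 without AKI 4). Cyp4a12a was lost without Control 1 (0.0546), and Cyp7b1 and Cyp2d9 without Control 1 or Control 2 (up to 0.0629 and 0.0646). In VHL-KO/AKI against VHL-KO kidneys, neither of which includes Control 3, 6 of the 7 rose. The rise was 5.04 for Cyp2j13 (32.9-fold, 95% interval 2.94 to 7.14 in log2 units), 4.04 for Cyp4a12a, 3.61 for Cyp4a12b, 3.49 for Cyp7b1, 2.43 for Cyp2d9 and 1.66 for Cyp2e1 (limma adjusted p = 0.00046 to 0.00461). Cyp4b1 differed by 0.86 (adjusted p = 0.0745) without overlap of its arrays, and the same difference was called when Control 3 was left out of the fit (adjusted p = 0.00392). Between VHL-KO/AKI and AKI kidneys none of the 7 was called, with changes between -0.32 and 0.00.

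The sequences just upstream of 3 of these genes are shown because their probes gave the split, 150 bases before the RefSeq transcription start on mouse assembly GRCm38.p6, read along the gene's strand, with a TATAAA box or its complement TTTATA and the letters ACGTG or GCGTG (the core that hypoxia-inducible factors can bind) or their complements in capitals. They lie at chr4:96077541-96077690 on the minus strand for Cyp2j13, chr15:82452227-82452376 on the plus strand for Cyp2d9 and chr7:140763669-140763818 on the plus strand for Cyp2e1. Cyp2j13 has 2 listed starts, and the stretch shown overlaps the annotated gene, which ends at 96077566.
Cyp2j13: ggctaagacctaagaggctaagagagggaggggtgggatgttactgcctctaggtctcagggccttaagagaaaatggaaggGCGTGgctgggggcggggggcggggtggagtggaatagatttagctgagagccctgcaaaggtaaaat
Cyp2d9: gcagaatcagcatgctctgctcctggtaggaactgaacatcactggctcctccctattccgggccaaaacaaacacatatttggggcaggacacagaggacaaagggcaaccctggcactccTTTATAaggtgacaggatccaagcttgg
Cyp2e1: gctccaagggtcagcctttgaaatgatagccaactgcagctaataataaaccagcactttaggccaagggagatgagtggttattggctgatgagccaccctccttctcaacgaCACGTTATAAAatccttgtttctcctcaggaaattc
Cyp2d9 has a TATAAA on the opposite strand 28 bases before its start, and Cyp2e1 has TATAAA and the complement of ACGTG side by side. Cyp2j13 holds GCGTG 68 bases before its start and neither TATAAA nor ACGTG in these bases.

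Other Cyp genes rose in injured kidneys with Control 3 at the level of the other Controls. Cyp2b10, a target of the xenobiotic receptor CAR (Nr1i3), had 6.89, 7.49, 7.69, 8.90 and 8.72 in VHL-KO/AKI kidneys, 8.03, 8.21, 8.08, 6.59 and 7.81 in AKI kidneys, 4.91, 4.75 and 5.00 in VHL-KO kidneys, and 5.99, 4.78 and 5.22 in Control kidneys. All 10 injured kidneys were above all 6 uninjured ones, with AKI 4 the lowest of them. Cyp2b10 rose by 2.41 in AKI against Control kidneys (95% interval 1.47 to 3.36, limma adjusted p = 0.000999) and by 3.05 in VHL-KO/AKI against VHL-KO kidneys (2.10 to 4.00, adjusted p = 0.000514). The other 4 Cyp2b genes were not called in any of the pairwise comparisons, with changes between -0.20 and 0.18; without AKI 4, Cyp2b9 was called in AKI against Control kidneys, at 0.24 (limma adjusted p = 0.023). Cyp3a13, of the drug-metabolising Cyp3a subfamily, had 6.04, 6.21, 5.51, 6.52 and 6.78 in VHL-KO/AKI kidneys, 6.87, 7.14, 6.55, 5.31 and 7.34 in AKI kidneys, 5.16, 5.23 and 5.45 in VHL-KO kidneys, and 5.30, 4.98 and 5.20 in Control kidneys. AKI 4 was close to the uninjured kidneys, at 5.31, whereas the other AKI kidneys were at 6.55 or above. Cyp3a13 rose by 1.48 in AKI against Control kidneys (limma adjusted p = 0.00664; 1.81 without AKI 4), and its change of 0.93 in VHL-KO/AKI against VHL-KO kidneys was not called (adjusted p = 0.108). The same change was called when AKI 4 was left out of the fit (adjusted p = 0.0107). The remaining 5 Cyp3a genes were not called in either injury comparison.

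Smaller rises completed the list, among them Cyp2f2, in which Control 3 stood above the other Controls. Cyp2f2, known for activating naphthalene in the lung, averaged 7.22 ± 0.27 in VHL-KO/AKI, 7.11 ± 0.24 in AKI, 6.13 ± 0.16 in VHL-KO and 6.57 ± 0.36 in Control kidneys (SD, n = 5, 5, 3 and 3). It rose by 1.09 in VHL-KO/AKI against VHL-KO kidneys (limma adjusted p = 0.00119) and by 0.54 in AKI against Control kidneys (adjusted p = 0.0346, and 0.174 without Control 2). Its Control values were 6.43, 6.29 and 6.98. Control 3 thus lay inside the injured range of 6.76 to 7.51, and the other uninjured kidneys, at 5.97 to 6.43, lay below it. Cyp2c65 rose by 0.63, Cyp1b1, a target of the aryl hydrocarbon receptor, by 0.44, Cyp4f16 by 0.44 and Cyp2c66 by 0.34 in AKI against Control kidneys. Of these, Cyp4f16 and Cyp2c66 each lost their call when any of several single arrays was left out (highest limma adjusted p 0.102, without Control 1, and 0.244, without Control 2). Cyp2c66 also rose by 0.38 in VHL-KO/AKI against VHL-KO kidneys (adjusted p = 0.0439, and 0.0551 without Control 3). Without Control 3, Cyp4f16 and Cyp2c66 missed the threshold in AKI against Control kidneys (adjusted p = 0.093 and 0.0692). Cyp2c65 stayed at a low level throughout, 4.77 to 5.34 in AKI kidneys against 4.31 to 4.41 in Control kidneys.

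The widest fall was in Cyp2c23, an arachidonic acid epoxygenase of the kidney. It had 8.12, 7.52, 7.57, 7.29 and 6.54 in VHL-KO/AKI kidneys, 6.68, 7.56, 8.14, 9.51 and 7.65 in AKI kidneys, 8.85, 8.71 and 8.34 in VHL-KO kidneys, and 10.77, 11.34 and 10.33 in Control kidneys. The Controls lay above every other kidney, and AKI 4 was the highest outside them. Cyp2c23 fell by 2.90 in AKI against Control kidneys (7.49-fold, 95% interval -3.92 to -1.89, limma adjusted p = 0.000451; -3.30 without AKI 4). In VHL-KO/AKI against VHL-KO kidneys the change of -1.23 was not called (adjusted p = 0.107), and it was called when AKI 4 was left out of the fit (adjusted p = 0.0194). Cyp4a14, a fatty acid hydroxylase that is female-predominant, had 10.53, 11.84, 12.59, 11.71 and 11.31 in VHL-KO/AKI kidneys, 8.71, 10.26, 10.85, 9.49 and 8.09 in AKI kidneys, 11.84, 12.11 and 12.62 in VHL-KO kidneys, and 12.13, 12.15 and 11.31 in Control kidneys. The AKI kidneys lay below every VHL-KO and Control kidney, 1 VHL-KO/AKI kidney lay inside their range, and Control 3 was the lowest of the Controls. Cyp4a14 fell by 2.38 in AKI against Control kidneys (95% interval -3.54 to -1.23, limma adjusted p = 0.00398) and differed by -0.59 in VHL-KO/AKI against VHL-KO kidneys (adjusted p = 0.538).

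Cyp51, the lanosterol demethylase of cholesterol synthesis, had 8.94, 8.15, 8.48, 7.98 and 8.11 in VHL-KO/AKI kidneys, 7.90, 7.72, 8.30, 9.20 and 7.78 in AKI kidneys, 10.35, 10.26 and 10.00 in VHL-KO kidneys, and 9.99, 10.21 and 10.03 in Control kidneys. All injured kidneys were below all uninjured ones, with AKI 4 the nearest to them. Cyp51 fell by 1.90 in AKI against Control kidneys (limma adjusted p = 0.000238) and fell by 1.87 in VHL-KO/AKI against VHL-KO kidneys (adjusted p = 0.000727). Cyp2d26 had 10.45, 10.34, 10.96, 10.27 and 10.43 in VHL-KO/AKI kidneys, 10.06, 10.48, 11.10, 11.71 and 10.32 in AKI kidneys, 12.27, 12.52 and 12.53 in VHL-KO kidneys, and 12.69, 12.68 and 12.32 in Control kidneys. The injured and uninjured kidneys did not overlap. It fell by 1.83 and 1.95 in the comparisons without and with Vhl deletion (limma adjusted p = 0.000312 and 0.000544), a direction opposite to that of Cyp2d9 of the same chromosome 15 cluster. Cyp2j11 averaged 11.12 ± 0.37 in VHL-KO/AKI, 10.76 ± 0.68 in AKI, 12.13 ± 0.16 in VHL-KO and 12.18 ± 0.01 in Control kidneys (SD, n = 5, 5, 3 and 3). It fell by 1.43 in AKI against Control kidneys and by 1.01 in VHL-KO/AKI against VHL-KO kidneys (limma adjusted p = 0.00235 and 0.0357), the second of which was lost without any 1 of 6 arrays (adjusted p up to 0.115, without VHL-KO 1).

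Bases upstream of Cyp51 and Cyp2d26, which fell, and Cyp2b10, which rose, are printed in the same way, at chr5:4104698-4104847 (minus strand), chr15:82794246-82794395 (minus strand) and chr7:25897508-25897657 (plus strand) of GRCm38.p6, with the capitals as above and also marking TCACCTCAG, the sterol response element known from Cyp51. The stretch for Cyp2d26 precedes the start used here but lies inside the annotated gene, chr15:82790107-82794452.
Cyp51: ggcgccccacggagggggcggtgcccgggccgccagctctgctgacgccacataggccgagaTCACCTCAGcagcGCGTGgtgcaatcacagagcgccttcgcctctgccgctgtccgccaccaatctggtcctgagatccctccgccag
Cyp2d26: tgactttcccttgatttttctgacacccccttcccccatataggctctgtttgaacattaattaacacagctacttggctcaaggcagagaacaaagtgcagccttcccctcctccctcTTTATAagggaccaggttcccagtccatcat
Cyp2b10: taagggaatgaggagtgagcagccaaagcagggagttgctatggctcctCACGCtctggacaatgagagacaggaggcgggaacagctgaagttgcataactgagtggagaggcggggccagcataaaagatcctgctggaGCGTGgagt
TCACCTCAG was found in Cyp51 alone among the 64 Cyp genes with an upstream sequence in the table (1.56%, against 0.348% of all 27025 genes, both strands, 250 bases before the start). TATAAA was found in 35.9% of the 64, against 14.3% of all genes, and ACGTG or GCGTG in 28.1%, against 41.5%. CCAAT was found in 43.8% against 37.5% and AGGTCA, a nuclear receptor core, in 23.4% against 15.8%. These are matches of letters and do not show that a factor binds.

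The remaining 8 calls among the falls in AKI against Control kidneys were smaller. Cyp4f14, a leukotriene hydroxylase in the mouse, fell by 1.26 (limma adjusted p = 1.26e-05) and also by 0.58 in VHL-KO/AKI against VHL-KO kidneys (adjusted p = 0.00658). Cyp2u1, a fatty acid hydroxylase, fell by 0.84, Cyp2j5, an epoxygenase of the proximal tubule, by 0.68, Cyp2d22 by 0.62, Cyp39a1, an oxysterol hydroxylase, by 0.60, and Cyp4f13 by 0.42. Cyp39a1 fell by 0.46 in VHL-KO/AKI against VHL-KO kidneys as well. The pseudogene Cyp2d13 and Cyp1a1, the classic target of the aryl hydrocarbon receptor, fell among low values; Cyp2d13 fell by 0.30 and Cyp1a1 fell by 0.23. Among these 8, single arrays decided Cyp1a1 (limma adjusted p up to 0.16, without Control 1), Cyp2d13 (0.147, without Control 1), Cyp2d22 (0.0788, without Control 1) and Cyp2j5 (0.123, without Control 3). Without AKI 4, 2 more Cyp2j genes were called lower in AKI against Control kidneys, Cyp2j9 at -1.17 and Cyp2j6 at -0.33 (limma adjusted p = 0.000985 and 0.0246), against -0.80 and -0.23 with it (0.129 and 0.229). In VHL-KO/AKI against VHL-KO kidneys, Cyp2u1 at -0.44 and Cyp4f18 at 0.40 were called when AKI 4 was left out of the fit (adjusted p = 0.0488 and 0.0421) and not with it (0.058 and 0.0743). Over all 87 members, the AKI and Control kidneys did not overlap in 7 genes that were higher and 11 that were lower (8.05% and 12.6%), beside 13.5% and 13.8% of all genes.

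**Figure D3:**
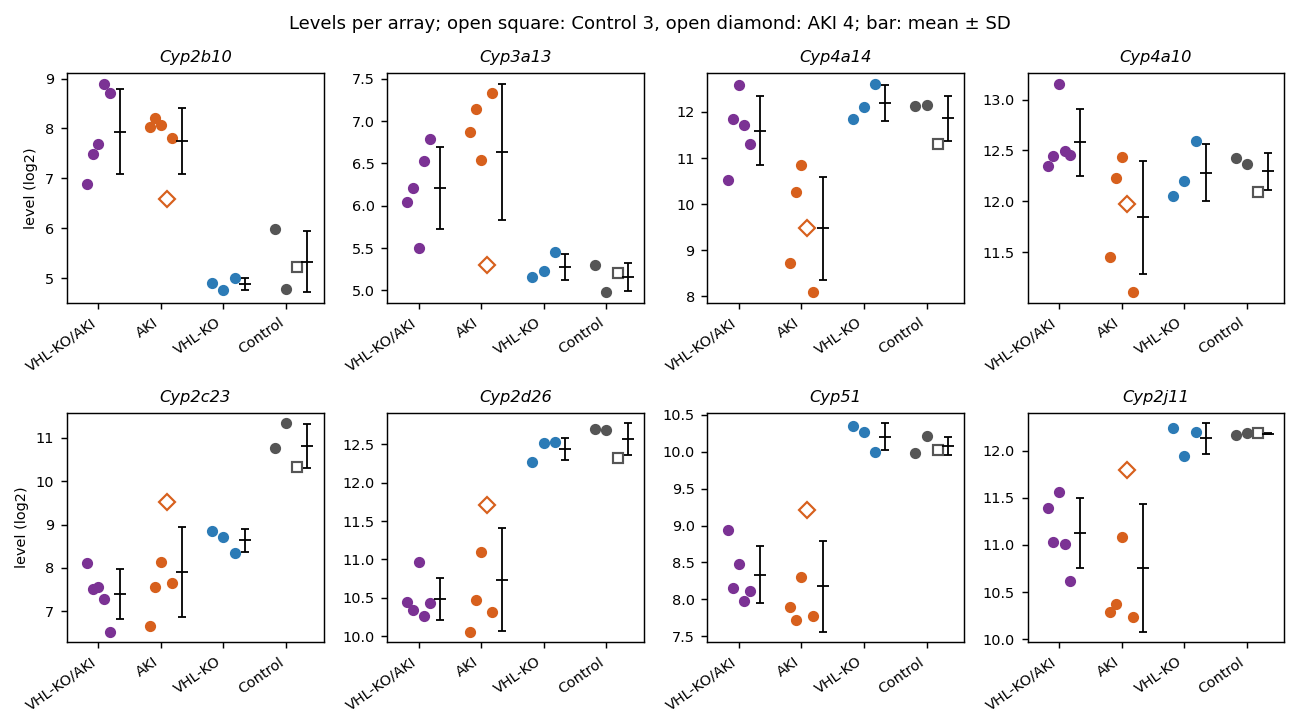
The log2 level (vertical axis) of 8 Cyp genes in each kidney by group, with mean ± SD as bars, the open diamond for AKI 4 and the open square for Control 3. Cyp2b10 and Cyp3a13 are higher and Cyp2d26, Cyp51 and Cyp2j11 lower in injured kidneys, Cyp2c23 is highest in the Control kidneys, and Cyp4a14 is low in the AKI kidneys, with VHL-KO/AKI kidneys from 10.53 to 12.59.

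Within injured kidneys, the largest Cyp change with Vhl deletion was in Cyp4a14, whose values are given above. It rose by 2.12 in VHL-KO/AKI against AKI kidneys (4.34-fold, 95% interval 1.12 to 3.12, limma adjusted p = 0.0254), and the groups overlapped because the VHL-KO/AKI kidney at 10.53 lay below the AKI kidney at 10.85. The call was lost without AKI 1, AKI 5, VHL-KO/AKI 2 or VHL-KO/AKI 3 (adjusted p up to 0.0784, without VHL-KO/AKI 3), and without AKI 4 the rise was the same size, 2.12. This comparison shares its AKI arrays with AKI against Control, so the rise here and the fall there are not separate observations. Its neighbours Cyp4a10 and Cyp4a31, near-identical hydroxylases that respond to the fatty acid receptor PPARα (Ppara), differed by 0.74 and 0.72 and were not called (adjusted p = 0.0853 and 0.0697). Cyp4a10 had 12.35, 12.45, 13.16, 12.49 and 12.45 in VHL-KO/AKI kidneys and 11.46, 12.23, 12.44, 11.98 and 11.11 in AKI kidneys. All but the lowest of the VHL-KO/AKI kidneys were above all AKI kidneys.

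The other 3 calls were small. Cyp2d22 lay between 9.70 and 10.14 in VHL-KO/AKI kidneys and between 8.74 and 9.66 in AKI kidneys, without overlap, and rose by 0.59 (limma adjusted p = 0.0496). That call was lost without any 1 of 15 arrays (adjusted p up to 0.141, without VHL-KO/AKI 3, and 0.0652 without Control 3) and held without AKI 4 (0.00993). Cyp39a1 had 7.76, 7.88, 7.79, 7.85 and 7.76 in VHL-KO/AKI kidneys and 7.44, 7.41, 7.45, 7.71 and 7.10 in AKI kidneys, also without overlap, and rose by 0.39 (adjusted p = 0.0263, lost without any 1 of 5 arrays, at most 0.0704 without VHL-KO/AKI 2). Cyp2c65 fell by 0.42, with 4.58 ± 0.05 in VHL-KO/AKI kidneys against 5.00 ± 0.23 in AKI kidneys (SD, n = 5 each, limma adjusted p = 0.0191, lost without AKI 3 or VHL-KO/AKI 1, at 0.0535 without AKI 3). The sex-linked signal did not separate these groups: all 10 kidneys had low Xist and high Y-linked levels.

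The number of genes called between VHL-KO/AKI and AKI kidneys changed with AKI 4. Without it, 8 Cyp genes rose and 2 fell, while the calls over all genes grew to 12% of those tested. The genes added were Cyp2j9 (0.93), Cyp4a31 (0.81), Cyp2j11 (0.63), Cyp4f13 (0.37) and Cyp2j6 (0.34), which were higher, and Cyp3a13 (-0.76), which was lower in VHL-KO/AKI kidneys (limma adjusted p = 0.00937 to 0.0407). Cyp2j9 lay between 7.65 and 8.44 in VHL-KO/AKI kidneys and between 6.88 and 7.09 in the AKI kidneys other than AKI 4, which had 8.80. With AKI 4 and Control 3 both left out, 7 rose and 2 fell, and Cyp2j11 missed the threshold (adjusted p = 0.0528).

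In uninjured kidneys, 1 Cyp gene was called with Vhl deletion. Cyp4f14 had 5.76, 5.37 and 5.63 in VHL-KO kidneys and 6.22, 6.60 and 5.97 in Control kidneys, without overlap, and fell by 0.68 (95% interval -0.98 to -0.38, limma adjusted p = 0.0452). Leaving out any 1 of 13 arrays ended that call (adjusted p up to 0.152, without VHL-KO 3), as did cyclic loess normalization, the replicate block and the fit of these groups alone, in which Cyp2c23 was called instead (adjusted p = 0.0132). Cyp2c23, with 8.34 to 8.85 in VHL-KO kidneys and 10.33 to 11.34 in Control kidneys, had a larger difference of -2.18 that was not called (95% interval -3.32 to -1.04, adjusted p = 0.112). Without AKI 4, which enters through the shared estimate of the spread, the same difference of -2.18 was called (adjusted p = 0.0108). Cyp27b1, which makes active vitamin D, had 6.34, 7.02 and 6.76 in VHL-KO kidneys and 7.04, 8.42 and 7.70 in Control kidneys, a difference of -1.02 that was not called (95% interval -2.08 to 0.05, adjusted p = 0.625).

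The interaction asks whether the change with Vhl deletion differed between injured and uninjured kidneys. By limma no Cyp gene passed, and over all genes 2 of 19938 passed (0.01%). An unadjusted p under 0.05 was found by limma in 7 of the 87 Cyp genes and in 2387 of all 19938 genes. The largest Cyp estimates included 2.13 for Cyp2j13 (95% interval -0.84 to 5.10, adjusted p = 0.595), 1.79 for Cyp4a14 (0.16 to 3.42, adjusted p = 0.373) and 1.68 for Cyp2c23 (0.24 to 3.12, adjusted p = 0.347). The estimate for Cyp2j13 rests largely on Control 3, which enters the change with Vhl deletion in uninjured kidneys. Control 3 had 11.70, against 5.15 and 6.25 in the other Controls and 5.36 to 5.84 in VHL-KO kidneys. Without AKI 4, 3.11% of all genes passed, and with them 2 Cyp genes: Cyp2c23 with 2.08 and Cyp4f14 with 0.71 (limma adjusted p = 0.0419 and 0.0481). In both, the level with Vhl deletion was lower in uninjured kidneys and near that of the AKI group in injured ones, at 7.41 ± 0.57 in VHL-KO/AKI and 7.91 ± 1.04 in AKI kidneys for Cyp2c23 (SD, n = 5 each). That AKI mean includes AKI 4, at 9.51, which this fit left out. The other AKI kidneys had 6.68 to 8.14. With AKI 4 and Control 3 both left out, neither of the 2 genes passed (limma adjusted p = 0.0677 and 0.057).

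**Figure D4:**
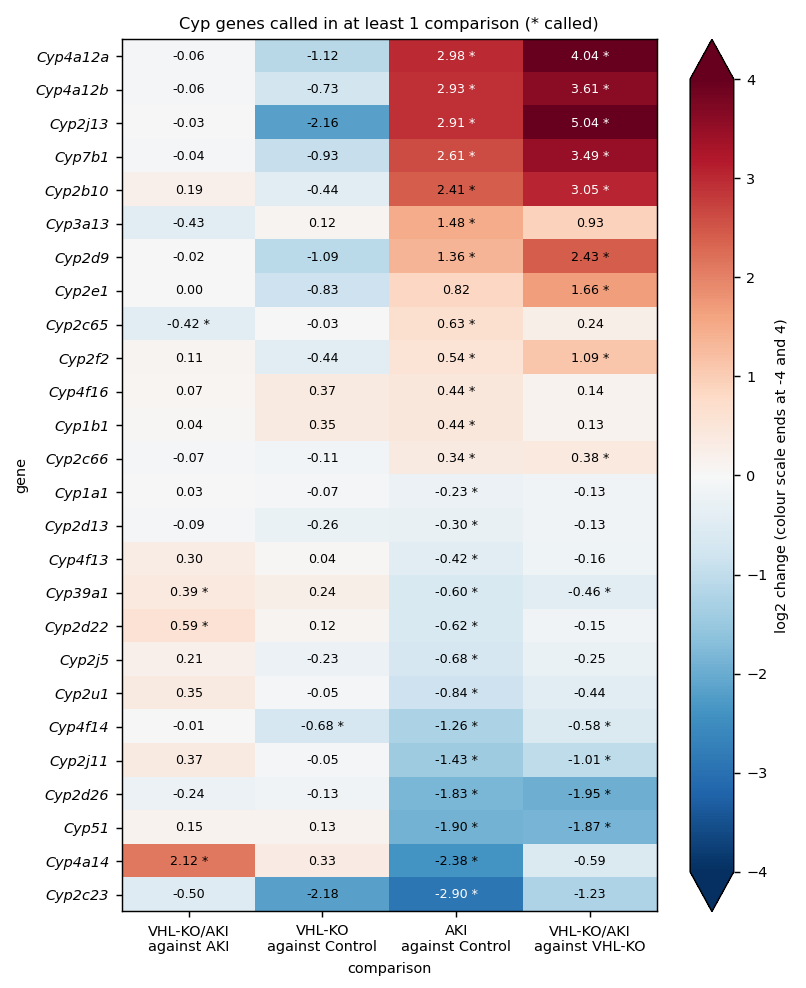
The log2 changes of the 26 Cyp genes called in at least 1 of the 4 pairwise comparisons, 1 gene per row and 1 comparison per column, with * for a call; red is higher and blue lower in the group named first, and the colour scale ends at -4 and 4. Calls are frequent in the AKI against Control column (25) and few in the columns for Vhl deletion (4 and 1), where Cyp4a14 has 2.12 in injured kidneys and Cyp2c23 an uncalled -2.18 in uninjured ones.

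Members with a settled role in kidney hormone metabolism were mostly not called. Cyp27b1 averaged 6.47 ± 0.87 in VHL-KO/AKI, 7.27 ± 0.57 in AKI, 6.71 ± 0.34 in VHL-KO and 7.72 ± 0.69 in Control kidneys (SD, n = 5, 5, 3 and 3), with wide spread inside each group. Cyp2r1, the vitamin D hydroxylase best known in liver, stayed between 6.62 and 6.70 in the group means, and Cyp27a1, the mitochondrial sterol hydroxylase, between 9.01 and 9.15. Cyp2s1, which is widely expressed in epithelia, averaged 8.66 ± 0.08 in VHL-KO/AKI and 8.27 ± 0.31 in AKI kidneys (SD, n = 5 each) and was not called. The 3 retinoic acid hydroxylases, Cyp26a1, Cyp26b1 and Cyp26c1, changed by -0.10 to 0.12 in the pairwise comparisons. The 5 measured genes of steroid hormone synthesis, Cyp11a1, Cyp11b1, Cyp11b2, Cyp17a1 and Cyp21a1, changed by -0.11 to 0.17 and were not called. Their values lay between 4.0 and 5.3 in every kidney, and those of the retinoic acid hydroxylases between 3.9 and 5.9. All were under 6.19, the median of all tested values. At such levels an absent change cannot be told from an absent signal. Adrenal cortex genes outside the family, a check for attached adrenal tissue, averaged 4.65 to 5.10 per array with none of the 4 measured called, and AKI 4 had the 5.10.

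Genes that work with the P450 enzymes were read from chosen lists. Of 9 measured redox partners, Cyb5r3 rose by 0.26 and Cyb5b fell by 0.76 in AKI against Control kidneys (limma adjusted p = 0.0474 and 0.000426), and Cyb5r3 alone was called, with a rise of 0.48, in VHL-KO/AKI against VHL-KO kidneys. None was called between VHL-KO/AKI and AKI kidneys. Of the 4 epoxide hydrolases, which open the epoxides that Cyp2c and Cyp2j enzymes make, Ephx1 fell by 1.08 in AKI against Control kidneys and rose by 0.83 in VHL-KO/AKI against AKI kidneys (limma adjusted p = 0.00263 and 0.0334). Both comparisons use the same AKI arrays, so this fall and rise are not separate observations. Ephx2 rose by 0.97 in VHL-KO/AKI against VHL-KO kidneys (adjusted p = 0.00571). Its Control values were 10.14, 10.14 and 10.98. Control 3 thus lay inside the injured range of 10.39 to 11.24, and the other uninjured kidneys, at 9.62 to 10.20, lay below it. Tbxas1, the thromboxane synthase and a P450 under another symbol, fell by 0.70 in AKI against Control kidneys and fell by 0.56 in VHL-KO/AKI against VHL-KO kidneys.

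Among 15 measured transcription factors and receptors that control P450 genes, 1 rose and 8 fell in AKI against Control kidneys (6.67% and 53.3%, median change -0.37, beside 13.2% and 14.9% of all genes and a median of 0.02). Cebpb rose by 1.88, Hnf4a, a regulator of proximal tubule and liver genes, fell by 1.28, and Vdr, the vitamin D receptor, fell by 0.96 (limma adjusted p = 9.75e-05, 0.000309 and 0.0037). In VHL-KO/AKI against VHL-KO kidneys 1 rose and 3 fell. Between VHL-KO/AKI and AKI kidneys 1 of the 15 was called: Ppara rose by 0.92 (limma adjusted p = 0.0159), with 9.70 to 10.26 in VHL-KO/AKI kidneys against 8.46 to 9.34 in AKI kidneys. Ppara had 9.59 to 10.60 in VHL-KO and 9.75 to 10.08 in Control kidneys. The AKI kidneys thus lay below all others, and the VHL-KO/AKI kidneys lay near the uninjured level. All 4 measured genes of a list of circadian clock output factors, known to act on P450 genes in liver and kidney, fell in AKI against Control kidneys. Dbp fell by 2.20, Hlf fell by 2.02 and Tef fell by 1.39. A further list covers vitamin D uptake and calcium transport, the processes Cyp27b1 serves. In it, 6 of 7 measured genes fell in AKI against Control kidneys (85.7%, beside 14.9% of all genes). In VHL-KO/AKI against VHL-KO kidneys 5 fell (71.4%, beside 8.91%). Among them was Kl, the FGF23 co-receptor (-1.83 and -1.24). The list shares Vdr with the 15 regulators, and Lrp2 and Cubn with the proximal tubule markers, so these counts are not separate observations. Proximal tubule markers, the cells in which most renal P450 enzymes are found, moved beside the Cyp falls: 8 of 9 measured fell in AKI against Control kidneys and 4 in VHL-KO/AKI against VHL-KO kidneys, and the array means were 10.80 to 11.53 in VHL-KO/AKI, 10.38 to 11.86 in AKI, 11.83 to 12.04 in VHL-KO and 12.24 to 12.32 in Control kidneys. Markers of other segments fell in AKI against Control kidneys as well. Calls were 3 of 4 for the thick ascending limb, 2 of 3 for the distal convoluted tubule and 2 of 5 for the collecting duct. Median changes were -2.35, -0.88 and -0.52, beside -1.41 for the proximal tubule. The falls were therefore not particular to the proximal tubule. In whole kidney, fewer cells of a type and less RNA per cell cannot be told apart. Of the 5 measured hepatocyte markers, Hpd, which the kidney also expresses, and Ttr fell in AKI against Control kidneys. The part of these marker shifts in the Cyp changes was not tested.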

How the data were processed

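RNA of halved kidneys from 16 mice was hybridised to expression arrays, 1 per mouse. The deposited values are on the log2 scale; per the submitters' processing notes the authors used Partek 6.4 and RMA (background correction, quantile normalization and summary of probes), and per the labels' protocols RNA was amplified and labelled with biotin. The genome build is not given in the sources used here. Of 35556 rows, 21789 carry 1 gene symbol in the platform annotation, 1621 several and 12146 none. Each gene is its row with the highest mean, giving 19938 genes. Groups come from the sample titles. limma 3.58.1 (R 4.3.3) fitted the 4 group means over all 16 arrays, with eBayes and Benjamini-Hochberg adjustment over 19938 genes for 5 comparisons, two-sided, called at an adjusted p under 0.05. The fit was tested on simulated data: of 2-fold changes it recovered 88% in VHL-KO against Control, 93% in AKI against Control, 93% in VHL-KO/AKI against AKI, 97% in VHL-KO/AKI against VHL-KO and 83% in the interaction. Each run had 200 changed genes and gave 7 to 11 false calls. The simulated noise was normal and independent, with no sex-linked split and no array standing apart. The shares are therefore a check of the fit and not its power on these kidneys. The number of arrays limits the precision. The labels call the replicates biological. Members and lists were chosen with earlier results of these data known. Genes named beyond counts were called with a log2 change of at least 1 and no overlap, or had a listed role; members of a subfamily are also given with their change. Tubular injury, proximal tubule and other cell markers came from chosen lists. Alternatives covered row choice, dim genes, 3 rescalings, variance models, array weights, the compared groups alone, a replicate block, a sex-linked covariate and single arrays left out; leaving out Control 3 and AKI 4 together was chosen after seeing the data. Upstream sequences are from RefSeq, GRCm38.p6, matched by symbol for 64 of 87 genes.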

Additional observations from a re-analysis of the deposited data

Results flagged for a closer look

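Among the 54 groups of 5 arrays tested over 27 named Cyp genes, 3 held 1 array whose gap to the nearest other, divided by the range of the group, was above 0.71; chance gives about 1 in 20 groups. Cyp2b10 was lower in AKI 4 than in the other AKI kidneys, at 6.59 against 7.81 to 8.21 (gap over range 0.756). Cyp2d26 was higher in VHL-KO/AKI 3, at 10.96 against 10.27 to 10.45 (0.746), and so was Cyp4a10, at 13.16 against 12.35 to 12.49 (0.828).

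Probe sets that carry several Cyp symbols were not used in the comparisons, and values of 3 of them are given here. The probe set for Cyp2a5 or Cyp2a4, genes of a subfamily known for hydroxylating coumarin and steroids, had medians of 13.1 in VHL-KO/AKI and 13.11 in AKI kidneys, 11.04 in VHL-KO kidneys and 11.13 in Control kidneys, where Control 3 had 12.09. The probe set for Cyp4a32, Cyp4a31 or Cyp4a10 had a median of 12.68 in VHL-KO/AKI kidneys, against 12.36 in AKI and 12.49 in Control kidneys. The probe set for Cyp4v3 or Klkb1 had a median of 7.35 in VHL-KO kidneys against 7.26 in Control kidneys, while the AKI kidneys, at 6.97 to 7.18, lay below all other kidneys. None of these was tested.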

How the results depend on the processing

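Of 34 calls of named Cyp genes in the 4 pairwise comparisons, 23 held with any single array left out, and between 24 and 34 held under each of the alternatives of row choice, scaling, variance, array weights, compared groups alone and replicate block; 33 of 33 held where dim genes were left out. The number of Cyp genes called in VHL-KO/AKI against AKI kidneys, 4, was 2 with quantile normalization, 13 with array weights, 0 with the compared groups alone (10 at an unadjusted p under 0.05 by limma) and 9 without Control 3 and AKI 4 together, and 1 to 10 with single arrays left out. Calls over all genes, 3.88%, were 4.07%, 14.4%, 1.12% and 11% under the first 4 of these, beside 2.3%, 14.9%, 0% and 10.3% of the Cyp genes (4.6% with all arrays). They were 1.15% to 12% with single arrays left out. The 1 call of VHL-KO against Control kidneys became 0 with cyclic loess (8 unadjusted), 2 with array weights (1.6% of all genes), 2 without both arrays (0.476%), and 0 to 2 with single arrays left out. The interaction gave 2 calls with array weights (4.44% of all genes) and 0 to 2 with single arrays left out. The 25 calls of AKI against Control kidneys became 15 with the compared groups alone (21.1% of all genes) and 16 to 27 with single arrays left out (21.3% to 34.2%), 16 without Control 1 (21.3%). The 14 of VHL-KO/AKI against VHL-KO kidneys became 12 to 18 with single arrays left out (8.44% to 19.6% of all genes). With arrays centred on their median the rises and falls were 13 and 11 in AKI against Control and 11 and 4 in VHL-KO/AKI against VHL-KO kidneys. Calls were then 27.6% and 17.2% of the Cyp genes, beside 28.9% and 14.3% of all genes. Same-numbered replicates did not deviate together (correlations from -0.38 to 0.20), so the numbers do not pair the kidneys; with a replicate block VHL-KO against Control kidneys had 0 calls (9 unadjusted), and 30 of the 34 named calls were kept. With sex-linked genes as a covariate, both injury comparisons had 0 calls (limma, 8 unadjusted in each), and 16 named changes turned sign without being called. In AKI against Control they were Cyp1a1 0.37, Cyp2d9 -2.98, Cyp2f2 -0.76, Cyp2j13 -10.68, Cyp4a12a -7.32, Cyp4a12b -6.37, Cyp4a14 0.59 and Cyp7b1 -5.95. In the other injury comparison they were Cyp2d9 -2.71, Cyp2e1 -2.91, Cyp2f2 -0.44, Cyp2j13 -11.04, Cyp4a12a -8.15, Cyp4a12b -7.40, Cyp4f14 0.90 and Cyp7b1 -6.63. The covariate and the injury rest on nearly the same split of the kidneys; Control 3 alone had both signals high. Unadjusted counts of the alternatives were taken over the Cyp genes alone. Where a count moved, the cause was not tested.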
